A study of Mus musculus with 12 samples.

Results

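The dose of the strong agonist was examined in 6 arrays of 5CC7 T cells, 3 from recipients given 2 µg of MCC peptide and 3 from recipients given 0.2 µg, chosen by their labels from the 12 arrays of the series. 5CC7 cells carry a transgenic T cell receptor, so every transferred cell meets the peptide with the same receptor. MCC is the receptor's strong agonist and 102S its weak one, as the labels name them, and the other 6 arrays came from recipients of 2 µg or 0.2 µg of 102S. In all 4 groups, cells were moved into B10.A mice by tail vein, peptide was given by the same route, and the cells were sorted from pooled lymph nodes 48 h later. The arrays were Affymetrix mouse arrays that read RNA from the 3′ end. Unstimulated cells were not analysed here, so a gene that is lower at 2 µg may lie above or below its resting level. The labels give replicates by number and do not say that they came from separate animals, so each p-value reflects the spread among these arrays alone. By Xist, array 1 of each group was female-type and arrays 2 and 3 male-type, so the spread takes in a difference of sex type. Between arrays 2 and 3 it may be technical.

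A T cell receptor reports both the quality of a peptide and its amount. Signal strength is known to govern how many cells enter division and which receptors, cytokines and transcription factors they then make. Strong and lasting signals also raise inhibitory receptors and intracellular brakes, while genes of resting cells are switched down as cells divide.

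All levels below are log2 expression values of 1 probe set per gene, and all differences are MCC 2 µg minus MCC 0.2 µg in log2 units, given ± the standard error of the fit. Levels of different genes are not compared. A gene is called when its limma Benjamini-Hochberg adjusted p lies under 0.05, over 13556 probe sets. A group mean under 4.48, the limit of the filter on low values, lies near the reading of an absent transcript, and a difference from it is a lower limit. In bulk RNA of sorted cells, fewer cells that make a transcript and less of it per cell cannot be told apart.

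The sorted cells read as T cells in both groups. All 10 measured T cell markers lay above the filter, with the receptor chain Cd3d at 12.95 and 12.87 in MCC 2 µg and MCC 0.2 µg. Ms4a1, Cd79a and Pax5 of B cells, Itgam and Cd14 of myeloid cells and Ncr1 of NK cells lay below it in both. Other members of these marker lists lay above it in both. In MCC 2 µg and MCC 0.2 µG, Ighm stood at 10.73 and 10.47, and Cd74 at 7.23 and 7.23. Ctss of the myeloid list stood at 11.39 and 11.48, Cst3 at 7.97 and 8.23, and Nkg7 of the cytotoxic list at 6.24 and 6.60. The summed signal of 13 genes of cytotoxic and NK cells, 7 of them above the filter, lay between 9.0 and 9.14 log2 with 2 µg of MCC, and between 9.51 and 9.80 with 0.2 µg. The sum of 14 B cell genes, 5 above the filter, lay between 10.94 and 11.11 with 2 µg and between 10.79 and 10.89 with 0.2 µg. That of 17 myeloid genes, 6 above the filter, lay between 11.61 and 11.67 and between 11.68 and 11.80 at these doses. Their part in the results was not tested.

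The end-to-end readings of the β-actin and Gapdh controls were higher on arrays 2 and 3 of MCC 0.2 µg than on the other 4 MCC arrays. The β-actin control, read at both ends of the transcript, had a 3′ minus 5′ difference of 0.50, 0.67 and 0.72 log2 on the MCC 2 µg arrays 1 to 3, against 0.74, 1.78 and 2.33 on the MCC 0.2 µg arrays 1 to 3. The groups did not overlap, and arrays 2 and 3 of the lower dose stood apart from the other 4 (exact permutation test, 2-sided p = 0.1, the smallest that 3 against 3 arrays can give). A wide gap between the ends is a known sign of broken RNA or of copying that stops short. The Gapdh control read -0.059, 0.45 and 0.23 on the MCC 2 µg arrays and 0.20, 1.49 and 1.65 on the MCC 0.2 µg arrays. Its group difference was -0.90 (exact permutation p = 0.3), close to the -0.99 of actin, with array 1 of MCC 0.2 µg among the values of the higher dose. The transferrin receptor control averaged 0.49 and 0.50 at these doses (exact permutation p = 0.9). The array 1 of both doses had female-type and the arrays 2 and 3 male-type Xist levels, and same-numbered arrays deviated together from their group means. Array 1 of each dose therefore forms a pair of near-equal actin readings, and each pair's difference is given beside the main values. That pair is also the only female-type one, so sex type and actin reading cannot be told apart when it is set against the others. Which part of the results came with the actin difference was not tested.

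Between the doses of MCC, 57 genes were higher and 96 lower at 2 µg, of 7945 genes tested, which is 0.717% and 1.21%, or 1.93% together. Among probe sets 96 were higher (0.708%) and 143 lower (1.05%), or 1.76% together. The leading genes were Nrp1, a co-receptor for semaphorins and vascular growth factor, which was higher by 2.81 ± 0.22, and Ccr9, the receptor that guides lymphocytes to the gut, which was lower by at least 3.16. At least 2-fold differences were found in 27 of the genes that rose and 35 of those that fell. The median difference was 0.97 over the higher genes and -0.85 over the lower ones, against -0.03 over all genes tested. All 153 called genes had the 3 arrays of MCC 2 µg on one side of the 3 arrays of MCC 0.2 µg, as did 19.2% of all genes. They also had the same sign in all 3 replicate pairs, as did 44.7% of all genes. For the 153 genes the same sign follows from the lack of overlap.

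**Figure D1:**
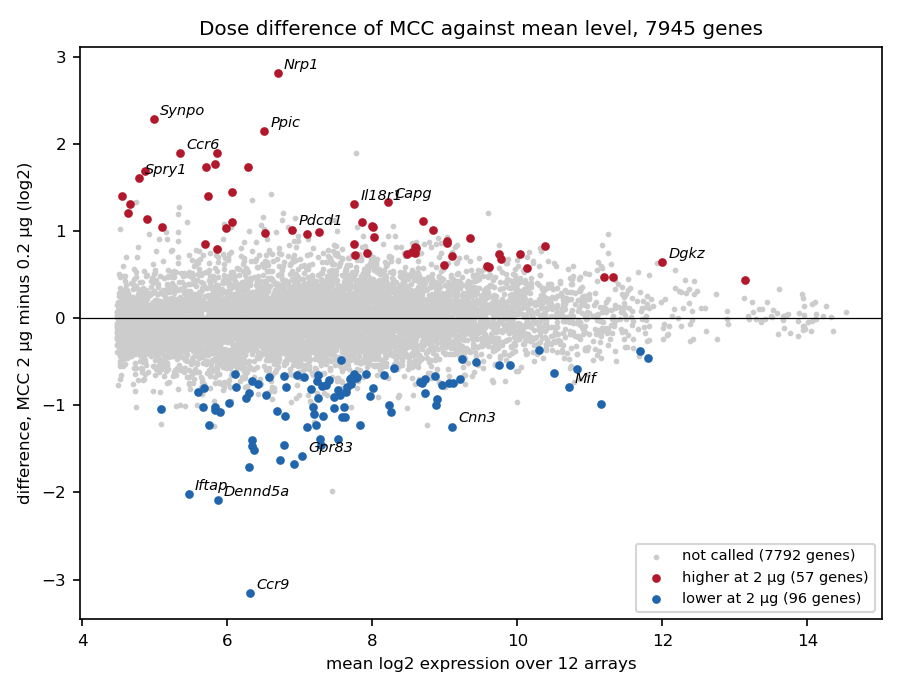
Difference between MCC 2 µg and MCC 0.2 µg (y axis, log2) against the mean log2 expression over 12 arrays (x axis), 1 point per gene, with called genes coloured by direction. The 57 higher genes reach 2.81 (Nrp1) and the 96 lower genes -3.16 (Ccr9).

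In the replicate 1 pair, where the actin readings were 0.50 in MCC 2 µg and 0.74 in MCC 0.2 µg, the median difference was 0.85 over the higher genes and -0.68 over the lower genes. In the pairs 2 and 3 the medians were 1.01 and 1.02 over the higher genes, and -0.72 and -1.17 over the lower ones. The replicate 1 difference was the smallest of the 3 in 35 of 57 higher and 55 of 96 lower genes, and it was under 0.5 of the mean of the other pairs in 5 and 16 genes. Without array 3 of MCC 0.2 µg, the array with the highest actin reading, 61 probe sets were called in place of 239, and 25 of the 57 and 17 of the 96 genes. Without arrays 2 and 3 of MCC 0.2 µg together, a fit that leaves 1 array at that dose and takes it to vary like the others, 20 probe sets were called, and 6 of the 57 and 4 of the 96 genes. Without array 1 of that dose 1208 were called. All 153 genes kept their sign in each of these fits, which follows from their arrays not overlapping and is no separate support. With the replicate number as a block 464 genes were called higher and 399 lower, among them all 57 and all 96, which is 5.84% and 5.02% of all genes. With the block and the actin covariate together 94 genes (1.18%) were higher and 49 (0.617%) lower, among them 44 of the 57 and 26 of the 96. Of the genes named below that were called with the block and not in the fit reported, Cd160, Plscr1, Slc2a3 and Mcm7 were also called with the block and that covariate, and the others were not.

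**Figure D2:**
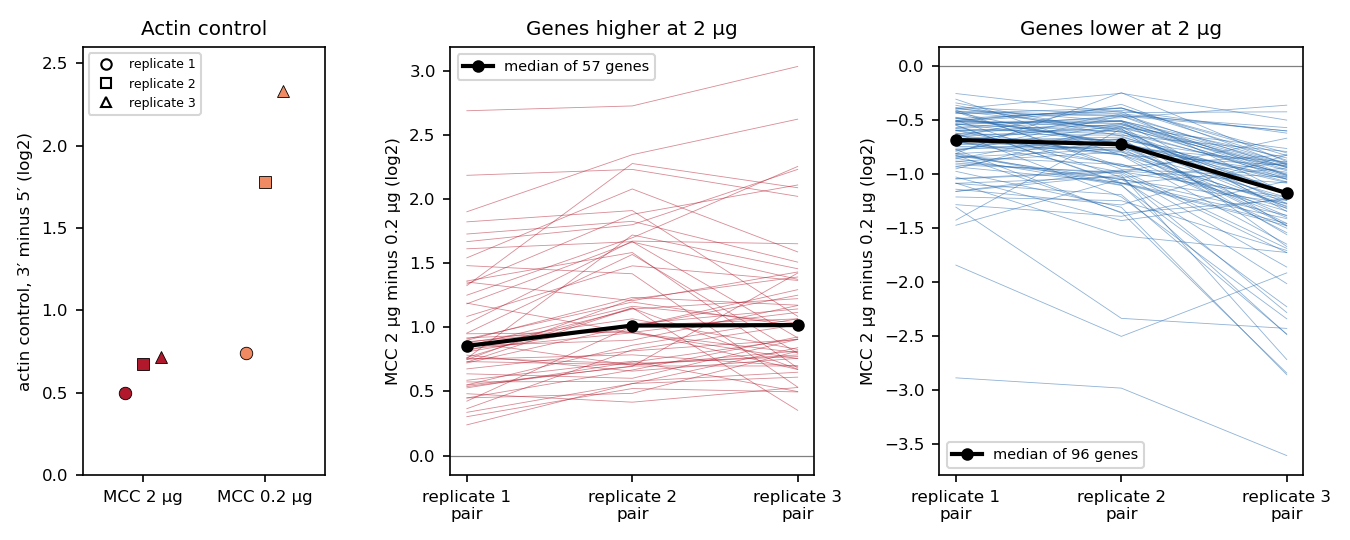
Left, 3′ minus 5′ difference of the actin control (log2) on the 3 arrays of MCC 2 µg and MCC 0.2 µg. Middle and right, the MCC 2 µg minus 0.2 µg difference (log2) of each called gene in the 3 replicate pairs, with the median in black. The replicate 1 pair, of near-equal actin readings and the only female-type pair, has medians of 0.85 and -0.68. Every line stays on one side of 0, as it must where the 3 and 3 arrays do not overlap.

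Leaving aside the stricter filter on low values, which removes genes, 10 genes stayed called in all 24 distinct alternative fits, which include each single-array omission, the omission of the 2 arrays of highest actin reading, the actin covariate, the block and other scalings. They were Nrp1, Synpo, Ccr6, Spry1, Endod1 and Capg, which rose, and Ccr9, Iftap, Rnf130 and Cnn3, which fell. Their highest adjusted p over these fits lay between 0.00105 and 0.0493.

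The promoters of 3 genes that rose and 3 that fell, all with large differences, are shown for reference. Those that rose are not the 3 highest. Synpo (2.29) and Ppic (2.14) rose more than Ccr6 (1.90) and Slc29a1 (1.90) and are not shown. Each promoter is 300 bases long, from RefSeq on build GRCm38.p6, most of it ahead of the annotated start. Capitals mark matches on either strand to 6 motifs of factors known to act downstream of the T cell receptor or in promoters generally. These were TGANTCA of AP-1, GGAAAA of NFAT, GCGNGGGCG of EGR, TGTTTAC of FOXO, the E-box CACGTG and the GC box GGGCGG. The motifs occur in 7.93%, 23.62%, 5.55%, 3.55%, 7.24% and 35.91% of 27025 such promoters, in that order. Of 167 genes chosen by the naming rule, 133 had a promoter in the table.
Nrp1, chr8:128358823-128359122, plus strand: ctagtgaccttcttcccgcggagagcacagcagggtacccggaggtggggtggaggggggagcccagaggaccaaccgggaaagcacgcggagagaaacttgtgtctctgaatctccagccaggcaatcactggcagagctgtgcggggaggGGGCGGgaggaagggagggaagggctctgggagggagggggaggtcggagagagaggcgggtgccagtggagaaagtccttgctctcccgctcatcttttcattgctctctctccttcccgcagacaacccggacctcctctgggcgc
Ccr6, chr17:8235793-8236092, plus strand: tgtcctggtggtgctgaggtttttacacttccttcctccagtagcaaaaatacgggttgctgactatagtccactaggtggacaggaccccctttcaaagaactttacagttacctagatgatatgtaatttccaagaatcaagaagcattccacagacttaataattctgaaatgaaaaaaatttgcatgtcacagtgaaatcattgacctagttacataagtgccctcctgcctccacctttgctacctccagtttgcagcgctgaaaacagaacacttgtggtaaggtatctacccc
Slc29a1, chr17:45599569-45599868, minus strand: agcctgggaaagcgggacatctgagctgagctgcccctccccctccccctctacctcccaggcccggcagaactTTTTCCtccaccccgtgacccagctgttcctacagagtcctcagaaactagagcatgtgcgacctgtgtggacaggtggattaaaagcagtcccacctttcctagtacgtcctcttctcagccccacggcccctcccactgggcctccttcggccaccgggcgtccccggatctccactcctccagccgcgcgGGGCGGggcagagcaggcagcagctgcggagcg
Ccr9, chr9:123766961-123767260, plus strand: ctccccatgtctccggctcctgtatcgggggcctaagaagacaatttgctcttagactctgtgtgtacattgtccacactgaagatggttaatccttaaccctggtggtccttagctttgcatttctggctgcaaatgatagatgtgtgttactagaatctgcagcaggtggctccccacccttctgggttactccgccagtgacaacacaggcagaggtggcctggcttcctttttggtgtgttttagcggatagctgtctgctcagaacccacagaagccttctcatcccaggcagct
Dennd5a, chr7:109960421-109960720, minus strand: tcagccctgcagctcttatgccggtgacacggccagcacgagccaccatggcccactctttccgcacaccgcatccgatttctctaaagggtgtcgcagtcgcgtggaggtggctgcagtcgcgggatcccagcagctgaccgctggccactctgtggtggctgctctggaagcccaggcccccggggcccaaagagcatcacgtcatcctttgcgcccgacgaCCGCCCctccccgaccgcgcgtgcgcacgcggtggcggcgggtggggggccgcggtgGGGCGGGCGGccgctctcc
Iftap, chr2:101628982-101629281, minus strand: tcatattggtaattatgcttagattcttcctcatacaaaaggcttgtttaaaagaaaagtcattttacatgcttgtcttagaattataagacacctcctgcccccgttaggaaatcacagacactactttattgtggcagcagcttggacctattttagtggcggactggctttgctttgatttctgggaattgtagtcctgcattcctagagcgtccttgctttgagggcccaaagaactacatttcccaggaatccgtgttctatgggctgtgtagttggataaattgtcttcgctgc

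The GC box occurs once in the windows of Nrp1 and Slc29a1 and 3 times in that of Dennd5a, where the last 2 matches overlap, and the NFAT motif occurs once in that of Slc29a1. The other motifs have no match in these windows. A match describes letters only and is no evidence of binding.

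Nrp1, Synpo and Capg were among the genes that rose. Nrp1 stood at 9.09, 9.65 and 9.33 on the MCC 2 µg arrays, against 6.40, 6.92 and 6.29 on the MCC 0.2 µg arrays. Every array of the higher dose lay well above every array of the lower one, by 2.69, 2.72 and 3.03 in the 3 pairs, which is 7.03-fold on average (limma adjusted p = 6.05e-05), and 2 further probe sets of Nrp1 were also called (2.62 and 2.50). Synpo, which encodes the actin-binding protein synaptopodin, stood at 7.08, 7.28 and 6.57 against 5.18, 4.94 and 3.95. It was higher by 2.29 ± 0.29 (adjusted p = 0.00197), and by 1.90 in the replicate 1 pair. Capg, which caps actin filaments, stood at 10.13, 9.96 and 9.95 against 8.78, 8.75 and 8.52. The arrays of each dose lay close together and the difference of 1.33 ± 0.12 was even over the pairs (1.35, 1.21 and 1.43; adjusted p = 0.000275).

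Tiam1, an activator of the GTPase Rac, rose by 0.97 ± 0.15 (adjusted p = 0.00748). Pdlim4, a protein of the actin skeleton, was lower by at least 1.51, its MCC 2 µg mean lying at 4.11 (adjusted p = 0.0341). The call of Pdlim4 was lost without array 3 of MCC 0.2 µg (0.169) and in 5 other single omissions. Alcam, an adhesion molecule that binds CD6, rose by 1.21 ± 0.23 (adjusted p = 0.0204), and its second probe set by 1.19. The call of the first was lost without any of 4 single MCC arrays, among them array 3 of MCC 0.2 µg (0.0618).

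Chemokine receptors changed in opposite directions. Ccr6, the receptor of CCL20, stood at 6.85, 7.74 and 7.14 on the MCC 2 µg arrays and at 5.18, 5.94 and 4.91 on the MCC 0.2 µg arrays. The groups did not overlap, and Ccr6 was higher by 1.90 ± 0.27 (adjusted p = 0.00479). Ccr9 stood at 4.14, 3.49 and 3.43 against 7.03, 6.47 and 7.03, and so read near absent at the higher dose on every array, while it was well above the filter at the lower one. The adjusted p of Ccr9 was 1.96e-05, and a second probe set was lower by 1.27 (adjusted p = 0.0166). The list of chemokine and egress receptors had 10 measured genes, among them Noct, another gene matched to Ccr4 through a synonym. Apart from Ccr6 and Ccr9, the other 8 were not called, where 1.93% of all genes were. Among them Cxcr4, which retains cells in the marrow, differed by -0.39 (95% interval -1.15 to 0.37), Cxcr3, a receptor of inflamed sites, by -0.12 (-0.65 to 0.41), and S1pr1, which guides exit from the lymph node, by 0.02 (-0.69 to 0.72). Cxcr5, which guides cells to follicles, differed by 0.66 (adjusted p = 0.201) and was called with the replicate block (0.0203). That fit called 4 of the list higher and 1 lower, beside 5.84% and 5.02% of all genes.

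**Figure D3:**
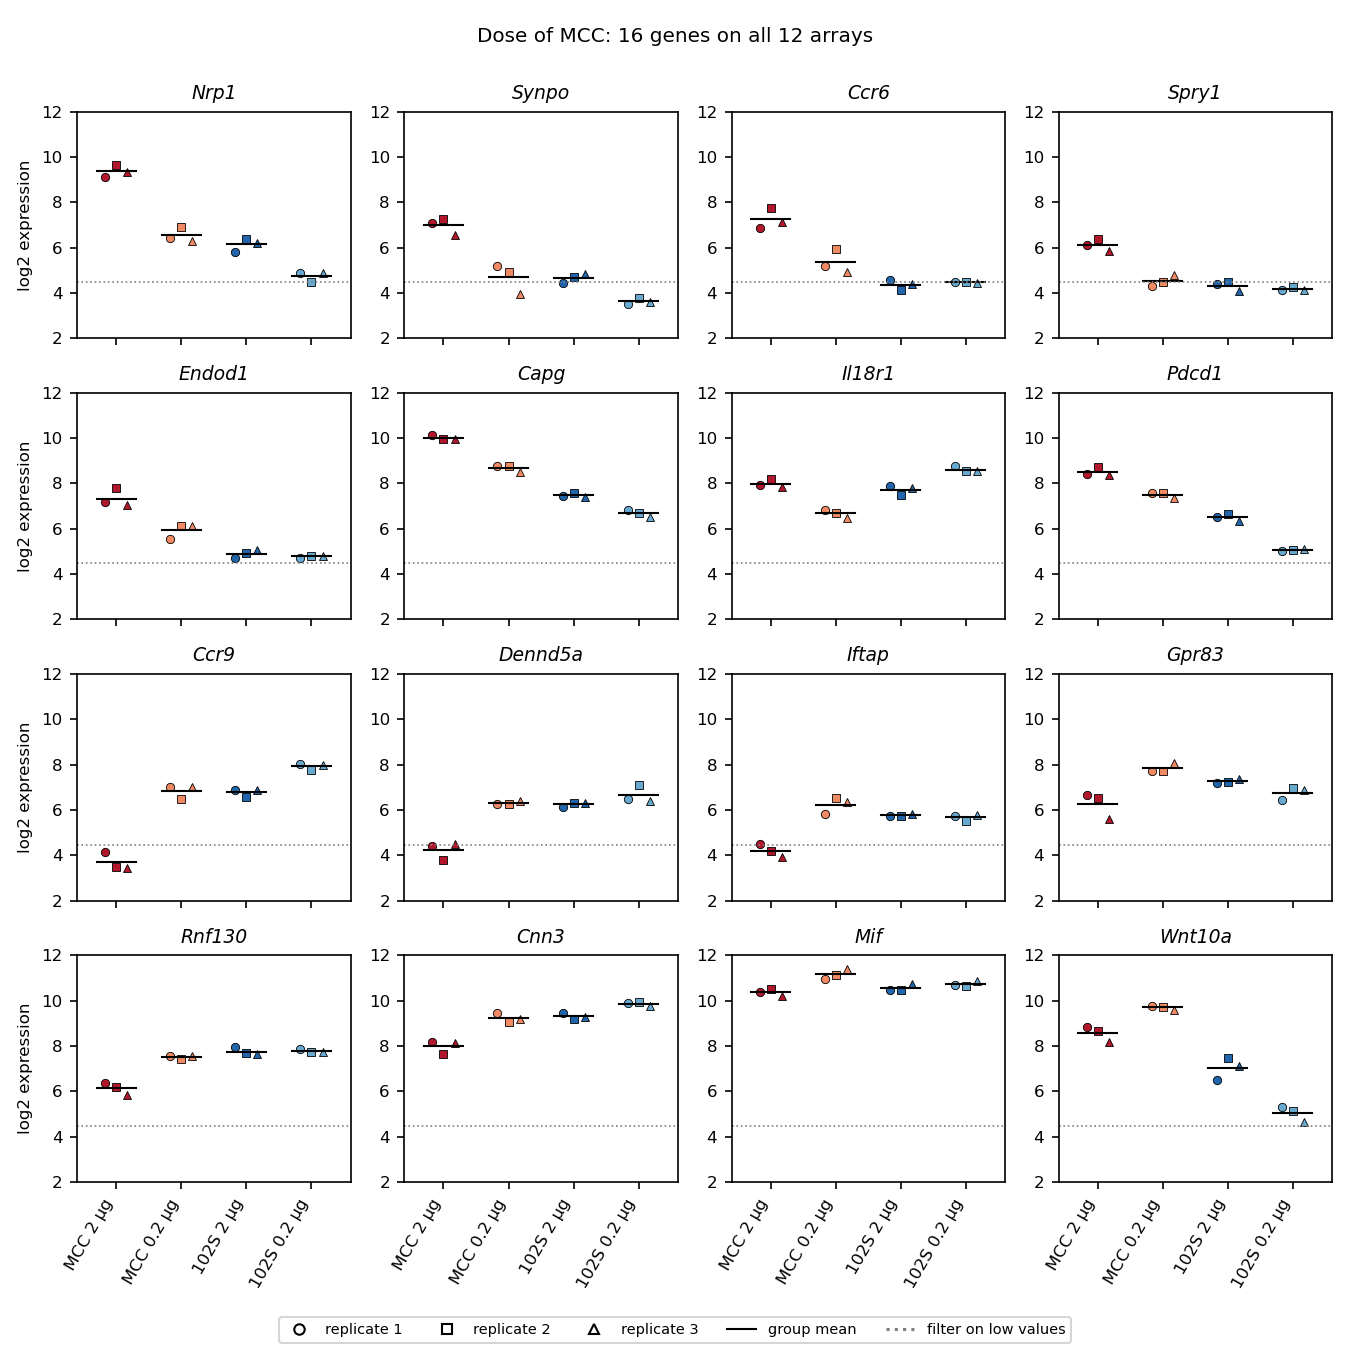
Log2 expression of 16 genes on all 12 arrays (y axis), by group (x axis: MCC 2 µg, MCC 0.2 µg, 102S 2 µg, 102S 0.2 µg), with symbols for the replicate number, a bar for the group mean and a dotted line at the filter on low values (4.48). Nrp1 and Capg are highest in MCC 2 µg and lowest in 102S 0.2 µg, whereas Ccr9, Dennd5a and Iftap are near or below the line in MCC 2 µg alone.

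Brakes of receptor signalling were among the genes that rose. Spry1, an inhibitor of Ras signalling, stood at 6.13, 6.39 and 5.86 on the MCC 2 µg arrays, against 4.30, 4.48 and 4.77 on the MCC 0.2 µg arrays, which lay near the filter. It was higher by 1.61 ± 0.18 (adjusted p = 0.00125), by 1.82 in the replicate 1 pair. Dgkz, the diacylglycerol kinase that limits Ras activation, stood at 12.62, 12.59 and 12.49 against 12.09, 11.89 and 11.79, a smaller step of 0.64 ± 0.08 (adjusted p = 0.00261). Ptpn11, which encodes the phosphatase SHP-2, rose by 0.92 ± 0.15 (adjusted p = 0.00899, and 0.0598 without array 3 of MCC 0.2 µg). Its second probe set differed by 0.53 and was not called (adjusted p = 0.242). Spry1, Dgkz and Ptpn11 were 3 of 31 measured genes of the brakes list, in which Dusp9 was matched to Dusp4 through a synonym. None of the list fell, and the median was 0.15, where 0.717% of all genes were called higher and 1.21% lower. With the replicate block 12 rose and 2 fell, beside 5.84% and 5.02% of all genes. Those that rose included Cd5, a receptor that dampens antigen signalling (0.39, adjusted p = 0.0199). Cd5 differed by 0.20 with the block and the actin covariate (adjusted p = 0.493) and by 0.15 without arrays 2 and 3 of MCC 0.2 µg.

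Of 8 measured inhibitory receptors and ligands 2 rose, none fell and the median was 0.86, beside 0.717% of all genes called higher and 1.21% lower. Pdcd1, the receptor PD-1, stood at 8.41, 8.74 and 8.38 with 2 µg of MCC and at 7.56, 7.58 and 7.35 with 0.2 µg. The 3 pairs differed by 0.85, 1.16 and 1.03 (1.02 ± 0.14, adjusted p = 0.004). Cd200, a ligand of an inhibitory receptor on myeloid cells, rose by 1.05 ± 0.16 (adjusted p = 0.00748). Lag3, which binds class II molecules, differed by 0.77 ± 0.23 with no overlap of the arrays (adjusted p = 0.127, and 0.0125 with the block). Cd160 differed by 1.07 ± 0.30 (0.101, and 0.0302 with the block). Both were called with the actin covariate (adjusted p = 0.009 and 0.0056), and Lag3 was not with the block and that covariate together (0.052). The block called 5 of the 8 higher and 1 lower, beside 5.84% and 5.02% of all genes. Pdcd1 and Cd200 also stand in the list of follicular helper genes, where Slamf6, an adhesion receptor of the SLAM family (0.86 ± 0.11, adjusted p = 0.00221), and Pou2af1, a coactivator of OCT factors (0.97 ± 0.15, adjusted p = 0.00824), rose as well. That makes 4 of 12 higher and none lower, with a median of 0.52, and 6 higher with the block. The list's median was 0.22 in the replicate 1 pair, 0.25 with the actin covariate, and 0.23 without arrays 2 and 3 of MCC 0.2 µg, where no member was called. Bcl6, the repressor that defines these helper cells, differed by -0.06 (95% interval -0.36 to 0.24) and Icos, their costimulatory receptor, by -0.07 (-0.34 to 0.19).

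Calls among early signalling and activation genes are given beside the 1.93% of all genes that were called. Of 18 genes of the T cell receptor complex and its proximal pathway 1 rose, Nfatc1, a calcium-driven transcription factor, at 8.70, 8.68 and 8.32 in MCC 2 µg and 7.78, 7.71 and 7.65 in MCC 0.2 µg (0.85 ± 0.13, adjusted p = 0.00741). The block called 6 of them higher, beside 5.84% of all genes. Among the 6 were the kinase genes Zap70 (0.85, adjusted p = 0.0145) and Prkcq (0.43, 0.00985), while a second probe set of Zap70 differed by -0.09. With the block and the actin covariate together 1 was called, beside 1.18% of all genes higher and 0.617% lower. In that fit Zap70 differed by 0.27 (adjusted p = 0.586) and Prkcq by 0.28 (0.233). None of 14 immediate early genes was called, with or without the block, though Myc was with the actin covariate. Egr2, a factor that limits activation, differed by -0.09 (95% interval -0.35 to 0.17), Nr4a1, an early reporter of receptor signals, by 0.09 (-0.34 to 0.52), and Myc, a driver of growth, by -0.12 (-0.85 to 0.60). The difference of Myc depended on the fit, at -0.83 with the actin covariate (adjusted p = 0.00943), -0.85 with the block and that covariate (0.0551) and -0.68 without arrays 2 and 3 of MCC 0.2 µg, where it was not called.

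Of 14 activation and costimulatory receptors 2 fell and none rose, beside 1.21% and 0.717% of all genes. Tfrc, the transferrin receptor, stood at 8.63, 8.60 and 8.39 with 2 µg of MCC, below its 9.41, 9.14 and 9.31 with 0.2 µg (-0.75 ± 0.11, adjusted p = 0.00639). Its second, dimmer probe set differed by -0.53 and was not called (adjusted p = 0.168). Tnfrsf18, the costimulatory receptor GITR, was lower by 0.70 ± 0.13, a difference of -0.70 (adjusted p = 0.0184), and its call was lost without array 3 of MCC 0.2 µg (0.0905) and in 3 other single omissions. Cd44, an adhesion receptor of activated cells, differed by 0.23 (95% interval -0.10 to 0.55), Il2ra, a chain of the IL-2 receptor, by -0.57 (-1.03 to -0.10, adjusted p = 0.201) and Tnfrsf9, the receptor 4-1BB, by -0.34 (-0.77 to 0.10). Tnfrsf4, the receptor OX40, differed by -0.55 (adjusted p = 0.176; 0.0241 with the block). The block called 2 of the list higher and 3 lower, beside 5.84% and 5.02% of all genes.

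Genes linked to regulatory and helper subsets split, beside 0.717% of all genes called higher and 1.21% called lower. Of 9 measured genes of the regulatory list 2 rose, Nrp1 and Capg, and 3 fell, Gpr83, Tnfrsf18 and Ikzf4. Gpr83, a G protein-coupled receptor, stood at 6.64, 6.52 and 5.61 in MCC 2 µg against 7.72, 7.71 and 8.09 in MCC 0.2 µg (-1.58 ± 0.24, adjusted p = 0.00748). Its replicate 3 pair differed most, by -2.48, against -1.08 and -1.19 in the others, and it was not called with the block and the actin covariate together (0.0959). Ikzf4, a partner of FOXP3, which the naming rule did not select, stood at 7.42, 7.37 and 7.03 against 8.07, 8.16 and 8.32 (-0.91 ± 0.20, adjusted p = 0.0413). Its call was lost in 9 of 12 single-array omissions. Without array 3 of MCC 0.2 µg, Gpr83 was the only lower call of the list (0.0494), with Tnfrsf18 at 0.0905 and Ikzf4 at 0.201, while Nrp1 and Capg were still higher. Of 14 measured genes of the Th1, Th2 and Th17 list, in which Noct was matched to Ccr4 through a synonym, Ccr6 rose. Id2, an inhibitor of E proteins, fell (-0.75 ± 0.17, adjusted p = 0.0438, and 0.149 without array 3 of MCC 0.2 µg). Gata3, the Th2 regulator, differed by 0.53 ± 0.14 without overlap of the arrays (adjusted p = 0.076; 0.00979 with the block). Irf4, whose level is known to scale with receptor signals, differed by 0.40 (95% interval -0.01 to 0.81).

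Mitosis and DNA replication genes lay mostly on opposite sides of 0. Over all genes, 0.717% were called higher and 1.21% lower. Of 24 measured genes of mitosis 2 rose, Cenpa, the centromeric histone (0.73 ± 0.15, adjusted p = 0.0262), and Kif11, a spindle motor (0.85 ± 0.19, adjusted p = 0.0458), while 22 had a positive difference and the median was 0.61 against -0.03 over all genes. The median was 0.61 in the replicate 1 pair too, and 0.66 without arrays 2 and 3 of MCC 0.2 µg. The block called 11 higher and none lower, beside 5.84% and 5.02% of all genes. It called 2 with the actin covariate added, beside 1.18% of all genes higher and 0.617% lower. Without array 3 of MCC 0.2 µg, or without any single MCC 2 µg array, none was called. Other probe sets of Kif11 differed by 0.16 and 0.78 and were not called (adjusted p = 0.635 and 0.111). Mki67, the proliferation marker, stood at 9.91, 9.99 and 10.18 with 2 µg and at 9.31, 9.46 and 9.69 with 0.2 µg. Its arrays did not overlap, but the difference of 0.54 ± 0.24 was not called (adjusted p = 0.261, and 0.0584 with the block). Mki67 was called with the actin covariate (adjusted p = 0.028) and not with the block and that covariate together (0.30). Knstrn, a spindle protein outside that list, rose by 1.41 ± 0.23, at least, since its MCC 0.2 µg mean was 4.42 (adjusted p = 0.00894, and 0.0587 without array 3 of that dose). Its second, dimmer probe set differed by 0.19 and was not called (adjusted p = 0.557). Of 24 DNA replication genes 19 had a negative difference and none was called, with a median of -0.15. Their medians in the replicate pairs 1 to 3 were -0.22, 0.02 and -0.28. With the block 4 fell, among them the helicase subunit Mcm7 (-0.30, adjusted p = 0.0443), whose 3 other probe sets differed by -0.49, 0.19 and -0.17.

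**Figure D4:**
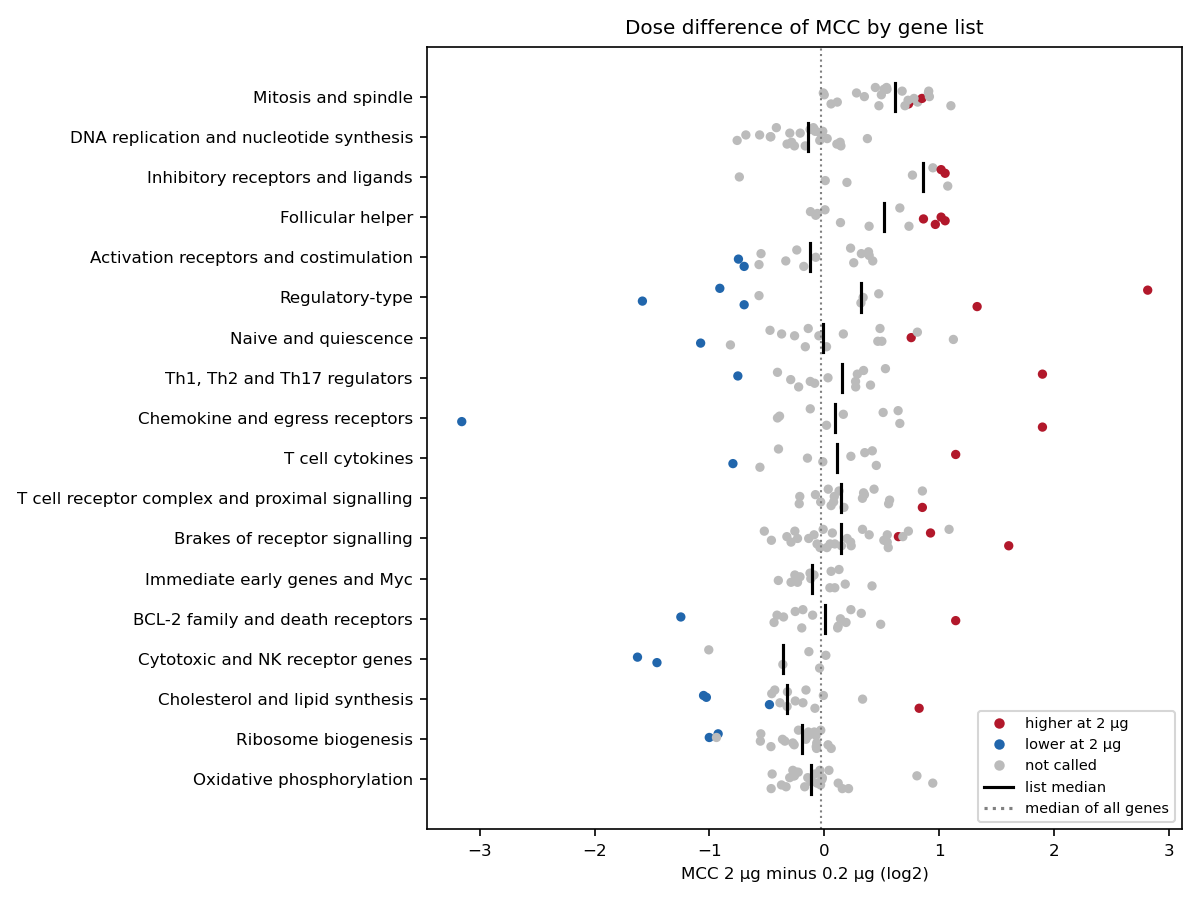
MCC 2 µg minus 0.2 µg differences (x axis, log2) of the measured members of 18 gene lists (y axis), red where called higher, blue where called lower and grey where not called, with each list's median as a black bar and the median of all genes (-0.03) dotted. Of the mitosis genes 22 of 24 lie to the right of 0, with a median of 0.61, and inhibitory receptors have a median of 0.86, while the medians of ribosome biogenesis and lipid synthesis genes are -0.19 and -0.32.

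Ribosome biogenesis and lipid genes had medians below 0. Their calls stand beside 0.717% of all genes called higher and 1.21% lower, and 5.84% and 5.02% with the block. Of 22 ribosome biogenesis genes 2 fell, Gnl3, the nucleolar GTPase nucleostemin (-1.0 ± 0.15, adjusted p = 0.00639), and Nop56, a component of the snoRNA-guided methylation complex (-0.92 ± 0.14, adjusted p = 0.00748). None rose, the median was -0.19, and the block called 6 lower, among them the polymerase subunit Polr1c (-0.94, 0.00559). Gnl3 stood at 7.66, 7.57 and 7.16 in MCC 2 µg and at 8.47, 8.29 and 8.63 in MCC 0.2 µg. A second probe set of Nop56 differed by -0.38 and was not called (adjusted p = 0.366). Of 15 lipid genes 3 fell, the squalene epoxidase Sqle (-1.05), the fatty acid synthase Fasn (-0.48) and the lipid carrier Fabp5 (-1.03), 1 rose, the desaturase Scd2 (0.83 ± 0.15, adjusted p = 0.0192), and the median was -0.32. All of these lipid calls were lost without array 3 of MCC 0.2 µg (adjusted p = 0.0855 to 0.21). Other probe sets of Fabp5 and Scd2 differed by -0.78 and 1.21 and were not called (adjusted p = 0.0827 and 0.168). Glycolysis, amino acid transport, interferon-stimulated, chaperone, proteasome and oxidative phosphorylation lists had no called member. Of the glycolysis list, where Pigq was matched to Gpi1 through a synonym, the block called 2 genes higher and 3 lower. Among them was the glucose transporter Slc2a3 (-0.75, adjusted p = 0.000952), whose second probe set was called without the block (-0.92, 0.0313). The block called 3 interferon-stimulated genes higher and 1 lower, among them the scramblase Plscr1 (0.98, 0.0421), whose second probe set was also called without it (1.62, 0.00107). It called 1 gene of the amino acid list higher and 3 lower, among them Psat1 of serine synthesis (0.66, 0.0135; 0.0511 without the block). In the other lists it called 2 oxidative phosphorylation genes higher and 2 lower, 1 endoplasmic reticulum chaperone gene higher, 2 heat shock genes lower and no proteasome gene.

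Cytokine and survival genes were called in both directions, beside 0.717% of all genes called higher and 1.21% called lower. Il18r1, a chain of the IL-18 receptor, stood at 7.92, 8.19 and 7.86 in MCC 2 µg, well above its 6.83, 6.71 and 6.49 in MCC 0.2 µg (1.31 ± 0.15, adjusted p = 0.00125). It was the only called gene of 17 measured cytokine receptor chains, and Il7r, the receptor of the survival cytokine IL-7, differed by -0.47 (95% interval -0.98 to 0.04). Of 10 T cell cytokines Fasl rose and Mif fell. Mif, the macrophage migration inhibitory factor, stood at 10.39, 10.51 and 10.22 in MCC 2 µg and at 10.96, 11.14 and 11.40 in MCC 0.2 µg (-0.80 ± 0.13, adjusted p = 0.00824). Fasl, the death ligand, was called (adjusted p = 0.0399), but both of its group means, 4.45 and 3.30, lay below the filter, so its size is not given, and its call was lost without array 3 of MCC 0.2 µg (0.0912). Tnfrsf25, a death receptor of T cells, fell by 1.25, a difference of -1.25 ± 0.20 (adjusted p = 0.00824; 0.0516 without array 3 of MCC 0.2 µg). Cish, a STAT5-induced inhibitor of cytokine signalling, was lower by 0.79 (difference -0.79 ± 0.16, adjusted p = 0.0313, and 0.15 without array 3 of MCC 0.2 µg), and Socs3, a related inhibitor, differed by -1.98 ± 0.55 (0.102; 0.0127 with the block), its 3 pairs lying at -1.91, -0.48 and -3.56.

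Cytotoxic and naive-cell genes were mixed. Beside them, 0.717% of all genes were called higher and 1.21% lower. These shares were 5.84% and 5.02% with the block, and 1.18% and 0.617% with the actin covariate added to it. Klrd1, an NK receptor chain also made by some T cells, stood at 5.29, 4.45 and 4.20 in MCC 2 µg and at 6.45, 5.46 and 6.91 in MCC 0.2 µg (-1.63 ± 0.34, adjusted p = 0.0347; 0.162 without array 3 of MCC 0.2 µg). Ctsw, a cathepsin of cytotoxic cells, stood at 6.80, 6.21 and 6.19 against 7.88, 7.78 and 7.91 (-1.46 ± 0.17, adjusted p = 0.00158). They were 2 of 7 measured cytotoxic genes, of which 6 had a negative difference, with a median of -0.36. Ncr1 and Gzmb lay below the filter in both groups, and Cd8b1 was level at 7.42 and 7.41. In MCC 2 µg and MCC 0.2 µg, Prf1 stood at 5.19 and 5.33, Nkg7 at 6.24 and 6.60, and Gzma at 4.28 and 5.29. Gzma was called lower with the block (adjusted p = 0.0242). Of 16 genes of naive and quiescent cells, Klf2, a factor of resting and recirculating cells, rose by 0.76 ± 0.17 (adjusted p = 0.0496), and Igfbp4, a growth factor binding protein, fell (-1.08 ± 0.23, adjusted p = 0.0399); both calls were lost without array 3 of MCC 0.2 µg (0.149 and 0.205). The block called 4 of the 16 higher and 3 lower, and 1 in each direction with the actin covariate added. Other tested probe sets of Igfbp4 differed by -0.24 to -1.31, and only the last of these was called (adjusted p = 0.0489).

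Further genes at the top of the list had no place in the gene lists. Endod1, an endonuclease-domain gene, stood at 7.17, 7.78 and 7.06 in MCC 2 µg, against 5.55, 6.11 and 6.14 in MCC 0.2 µg, higher by 1.4 ± 0.21 (adjusted p = 0.00703), and its 3 other probe sets by 1.63 to 2.33. Ppic, a cyclophilin, rose by 2.14 ± 0.31, Slc29a1, a nucleoside transporter, by 1.90 ± 0.33, Eea1, an early endosome tether, by 1.78 ± 0.35, and Ptger2, a prostaglandin E2 receptor, by 1.69 ± 0.25. Their adjusted p-values were 0.00554, 0.0145, 0.0242 and 0.00565, and the calls of Slc29a1 and Eea1 were lost without array 3 of MCC 0.2 µg (0.0855 and 0.126). Among genes that fell, Dennd5a, a Rab GTPase exchange factor, stood at 4.42, 3.77 and 4.50 in MCC 2 µg against 6.26, 6.27 and 6.41 in MCC 0.2 µg, and Iftap at 4.50, 4.20 and 3.91 against 5.81, 6.53 and 6.33. Both read near absent on the higher-dose arrays, so their differences, -2.08 and -2.02, are lower limits (adjusted p = 0.000861 and 0.000577). Rnf130, a ubiquitin ligase of the RING type, was lower by 1.39 (difference -1.39 ± 0.15, adjusted p = 0.000861), and Cnn3, an actin-binding calponin, by 1.24 (difference -1.24 ± 0.16, adjusted p = 0.002), with 4 of 5 other tested probe sets of Cnn3 called in the same direction. Nfix and Pmepa1, a nuclear factor and an inhibitor of TGF-β signalling, fell by 1.71 and 1.67 (differences of -1.71 and -1.67), and both were lost without array 3 of MCC 0.2 µg (0.102 and 0.122).

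The dose of the weak agonist was set beside that of MCC, with no array shared. With 102S, 304 genes were called between the same doses (3.83%), 262 higher (3.3%) and 42 lower (0.529%) at 2 µg. Of the 57 genes higher with more MCC, 28 were also higher with more 102S and 2 were lower, and of the 96 lower genes 15 were lower and 5 higher. The 28 are 49.1% of the MCC calls and 10.7% of the 102S calls, and the 15 are 15.6% and 35.7%. Over the 7945 genes the 2 dose differences correlated at r = 0.31 and rho = 0.28, given as a description across genes, which are not independent replicates. Pdcd1, Slamf6, Pou2af1, Nrp1 and Capg rose with both peptides, by 1.44, 1.07, 0.94, 1.4 and 0.80 with 102S.

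The test of the difference between the dose effects called 72 genes (0.906%), 5 with a higher (0.0629%) and 67 with a lower (0.843%) effect of MCC. Among the genes called for MCC, Il18r1 rose with the dose of MCC and fell by 0.90 with that of 102S (interaction 2.21, adjusted p = 0.0004). Klf2 likewise rose with MCC and fell by 1.02 with 102S (1.77, 0.00471). Wnt10a, a Wnt ligand, fell at 2 µg of MCC (8.84, 8.64 and 8.19 against 9.77, 9.71 and 9.60), while it stood at 6.49, 7.48 and 7.10 with 2 µg of 102S and at 5.29, 5.12 and 4.66 with 0.2 µg (interaction -3.13, 0.00121). Its MCC call (0.0406) was lost without array 3 of MCC 0.2 µg (0.138). Slc22a2, an organic cation transporter, also fell with MCC and rose with 102S, whose low dose read 3.89 (-3.38, 0.00021). Mki67 differed by 0.54 with MCC and by 4.32, at least, with 102S, whose low dose read 3.96 (interaction -3.78, 0.000294). The interaction of Ccr9 (-2.01, 0.00855) was not seen with its second probe set (-0.12, 0.919). Ccr6 lay at or below the filter in both 102S groups, at 4.36 and 4.46, so its interaction of 2.00 (0.0316) is set against a gene near absent there.

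**Figure D5:**
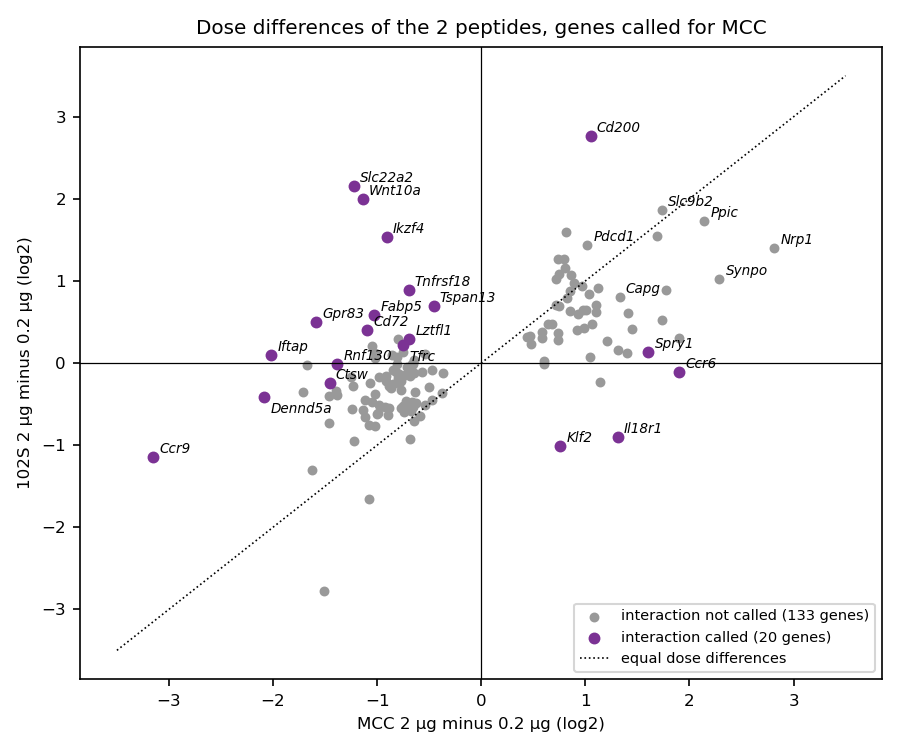
Dose difference with 102S (y axis, log2) against the dose difference with MCC (x axis, log2) for the 153 genes called for MCC, with the 20 whose interaction was called in purple and the line of equal differences dotted. Il18r1 and Klf2 lie at lower right, Wnt10a and Slc22a2 at upper left, and Nrp1 and Ppic rise with both peptides.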

How the data were processed

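Sorted 5CC7 T cells were profiled on 12 Affymetrix mouse arrays, 3 for each of 2 doses of 2 peptides. The authors deposited log2 expression values per probe set for 22690 probe sets, the log2 scale being read from the values. GCOS 1.4 is named per the submitters' processing notes, and the summary of probes, background correction and scaling are not given in the sources used here. Array medians lay between 5.17 and 5.26, so the values were used as deposited. Gene names came from the platform annotation, in which 20380 probe sets had 1 symbol, 691 several and 1555 none, apart from 64 controls. Entrez identifiers of 20351 were found in a RefSeq table.

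Controls and probe sets under the 40th percentile of the mean over 12 arrays (log2 4.48) were left out, which left 13556, of which 12423 had 1 symbol, for 7945 genes. The probe set with the highest mean stood for a gene. A linear model with 4 group means was fitted to the log2 values (limma 3.58.1, lmFit, then eBayes with a trend on intensity; R 4.3.3). It had 8 residual and 4.16 prior degrees of freedom. Tests were 2-sided, with Benjamini-Hochberg adjustment and a threshold of 0.05. The median standard error of a dose difference was 0.18 log2. Arrays carry no read depth, and their number limits the precision. The fit was tested on simulated data.

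The replicate numbers were treated as pairing the arrays, since deviations from group means correlated within all same-numbered MCC arrays, at 0.56, 0.20 and 0.22. Differently numbered arrays correlated at -0.46 to 0.22, with array 3 of MCC 2 µg and array 2 of MCC 0.2 µg at 0.22, so the numbers do not clearly separate arrays 2 and 3. A fit with the number as a block was run beside the main one, and its value is given where it changes a call or moves a count by over 1.5 times. Other alternatives changed the scaling, the filter, the trend, array weights, sex type, the actin covariate and the arrays included. Fits without arrays 2 and 3 of MCC 0.2 µg together, and with the block and the actin covariate together, were chosen after seeing the data. The members, gene lists and named genes were chosen with earlier results of these data known. List symbols with no tested gene were matched through RefSeq synonyms. This put Noct in for Ccr4, Dusp9 for Dusp4, Pigq for Gpi1 and Socs6 for Socs4, which are different genes. Named were the 20 highest and 20 lowest called differences without overlap, the members with the smallest p in each list, at most 4, and a fixed set of key genes. Tbx21, Cd69 and Gapdh were among the key genes with no tested probe set, and 1 gene list is not reported here.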

Additional observations from a re-analysis of the deposited data

Results flagged for a closer look

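For 23 named genes the dose effect of MCC differed from that of 102S in the interaction test (limma, Benjamini-Hochberg over 13556 probe sets). Each value is the MCC dose difference minus the 102S dose difference in log2. It was positive for Il18r1 (2.21), Ccr6 (2.00), Klf2 (1.77) and Spry1 (1.47). Ccr6 and Spry1 lay below the filter on low values in both 102S groups. Among genes that fell at 2 µg of MCC it was negative for Slc22a2 (-3.38), Wnt10a (-3.13), Ikzf4 (-2.44), Iftap (-2.12), Gpr83 (-2.08), Ccr9 (-2.01), Dennd5a (-1.67), Fabp5 (-1.61), Tnfrsf18 (-1.59), Rnf130 (-1.37), Ctsw (-1.21) and Tfrc (-0.97). Cd200 rose with both peptides, with a value of -1.71.

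The other 6 genes were called with the dose of 102S and not with that of MCC. They were Mki67 (-3.78), Cxcr5 (-2.78), Tnfrsf9 (-1.61), Lta (-1.33), Bcl6 (-1.23) and Icos (-1.20). Mki67, Cxcr5 and Slc22a2 read 3.96, 3.71 and 3.89 with 0.2 µg of 102S, under the filter, so their values are inexact. Bcl6 averaged 7.78 in MCC 2 µg and 7.84 in MCC 0.2 µg, and 8.04 in 102S 2 µg and 6.86 in 102S 0.2 µg. A second, dimmer probe set of Bcl6 gave 0.079 (adjusted p = 0.944), and one of Icos -0.48 (0.585), so neither value was called with another probe set.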

How the results depend on the processing

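The count of probe sets called for the dose of MCC, 239 in the fit reported, depended on the processing. It was 359 with median centring (150 higher), 5654 with array weights (3382 higher, 2272 lower), 74 with the 6 MCC arrays alone (52 and 22), 889 with sex type as a block (448 and 441), 591 with male-type arrays alone (359 and 232) and 542 with the actin covariate (169 and 373). With the replicate number as a block it was 1563 (911 and 652), without the MCC array of highest actin reading 61 (38 and 23), and without arrays 2 and 3 of MCC 0.2 µg 20 (12 and 8). The block with the actin covariate gave 224, with 132 higher and 92 lower. Leaving out 1 array at a time gave 61 to 1208 calls, 38 to 679 higher and 23 to 529 lower. The 102S count of 429 was 5413 with array weights, 828 with the replicate block, 662 with the sex block, 269 with male-type arrays, 1420 with the actin covariate, 1953 with the block and that covariate, and 210 to 501 without 1 array. The interaction count of 104 was 6729, 321, 245, 285 and 235 under weights, the replicate block, the sex block, the covariate, and block with covariate. It was 67 without the array of highest actin reading, 34 without arrays 2 and 3, and 62 to 142 without 1 array. The causes were not tested.

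No called gene that is named reversed in any alternative. Since the arrays of called genes do not overlap, fits that leave out, weight or block arrays by number could not reverse them. Reversed differences, all of genes not called, were Actb -0.046, Nr4a1 -0.47, S1pr1 -0.40 and Icos 0.16 with block and covariate, Cxcr3 0.14, Icos 0.077, Nr4a1 -0.26 and S1pr1 -0.59 with the covariate, and Cxcr4 0.30, Egr2 0.060, Il7r 0.060 and Myc 0.19 with array weights. Without arrays 2 and 3 of MCC 0.2 µg they were Cxcr3 0.13, Icos 0.12, Nr4a1 -0.23 and S1pr1 -0.25. Without 1 array at a time Cxcr3 lay between -0.35 and 0.038, Cxcr4 between -0.67 and 0.096, Icos between -0.17 and 0.00679, Myc between -0.27 and 0.15 and S1pr1 between -0.11 and 0.16. Without the array of highest actin reading Cxcr3 was 0.038 and S1pr1 -0.015. Male-type arrays gave Bcl6 0.024 and Myc 0.091, centring S1pr1 -0.00944, quantile scaling S1pr1 -0.014, and other probe sets Bcl6 0.024, Icos 0.40, Mcm7 0.19 and Zap70 -0.093.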
